A study of Mus musculus with 16 samples.

Results

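Collagens, laminins and integrins are the structural chains of the extracellular matrix and the receptors with which cells hold on to it. The genes described here are those whose symbol names a collagen chain (*Col* with a number and an a chain), a laminin chain (*Lama*, *Lamb*, *Lamc*) or begins with *Itga* or *Itgb*. Of 53679 gene symbols in the expression table, 86 matched, and 49 of these had a mean of at least 0.5 FPKM over all 16 cultures. They were 27 of 44 collagen chains, 6 of 11 laminin chains and 13 of 27 integrin subunits. The pattern also took 4 genes that carry an integrin name without coding for an integrin subunit, of which *Itgb1bp1*, *Itgb1bp2* and *Itgb3bp* passed. FPKM is the number of fragments per kilobase of transcript, scaled to sequencing depth, and the value of a gene is the sum over its isoforms.

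The cultures were wild-type (wt) primary cortical neurons of mouse embryos at E15. They received 10 μM tianeptine (TIA), an antidepressant, or vehicle (VEH, called untreated in the labels) at 8 days in vitro (DIV 8). At DIV 9, 24 h later, they underwent oxygen-glucose deprivation (OGD) for 3 h, an in vitro model of ischemia, or a sham procedure (CONTROL), and RNA was taken at 6 h of reoxygenation. The 4 groups of 4 cultures each were CONTROL-VEH (cultures 1 to 4), CONTROL-TIA (5 to 8), OGD-VEH (9 to 12) and OGD-TIA (13 to 16). The cultures are mixed to the extent that glial precursors survive, and their cell markers are given with the results. The depth, estimated from the steps between low values, was 17.51 to 23.17 M reads per culture (median 20.97 M), so that 1 read on a transcript of 1 kilobase gave 0.0432 to 0.0571 FPKM.

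As background, collagens are trimers of alpha chains. Collagen IV forms the network of basement membranes, collagens II, V, XI and XXVII form fibrils, collagen VI forms beaded filaments, and a few collagens such as XXIII and XXV span the membrane. Laminins are trimers of an alpha, a beta and a gamma chain, and the gamma-1 chain from *Lamc1* is part of most of them. Integrins are pairs of an alpha and a beta subunit. The beta-1 subunit pairs with many alpha subunits, among them alpha-5 in the main fibronectin receptor and alpha-3, alpha-6 and alpha-7 in laminin receptors, whereas alpha-V also pairs with beta-5 and beta-8 to bind vitronectin or latent TGF-beta. In the brain most of these proteins belong to vessels, meninges and glia, and cortical neurons express integrins and membrane-spanning collagens.

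Sequences before the transcription start are shown for 4 genes that were higher after OGD in the comparison over all cultures, 3 with and 1 without a GC box, the motif that most of these genes held. They are the 250 bases before the RefSeq start on GRCm38.p6, read 5′ to 3′ on the strand of the gene, with matches to the GC box GGGCGG or its reverse complement CCGCCC in capitals.
*Itga5* (chr15:103366792-103367041, minus strand): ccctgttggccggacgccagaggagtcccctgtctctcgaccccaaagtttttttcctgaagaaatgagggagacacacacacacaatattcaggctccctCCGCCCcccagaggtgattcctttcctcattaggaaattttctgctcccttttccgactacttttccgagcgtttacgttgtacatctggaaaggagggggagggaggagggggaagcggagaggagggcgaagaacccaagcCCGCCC
*Col11a1* (chr3:114030290-114030539, plus strand): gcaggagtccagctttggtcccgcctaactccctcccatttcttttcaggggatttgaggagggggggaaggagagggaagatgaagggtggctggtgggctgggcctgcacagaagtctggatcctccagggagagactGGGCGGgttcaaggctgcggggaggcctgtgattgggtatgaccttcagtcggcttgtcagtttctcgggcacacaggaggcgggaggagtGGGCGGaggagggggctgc
*Col4a6* (chrX:141474077-141474326, minus strand): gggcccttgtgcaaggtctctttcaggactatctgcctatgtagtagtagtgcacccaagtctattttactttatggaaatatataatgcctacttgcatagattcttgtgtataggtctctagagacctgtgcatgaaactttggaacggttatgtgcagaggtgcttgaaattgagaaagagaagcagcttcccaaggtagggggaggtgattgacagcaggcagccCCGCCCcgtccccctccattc
*Itgav* (chr2:83724147-83724396, plus strand): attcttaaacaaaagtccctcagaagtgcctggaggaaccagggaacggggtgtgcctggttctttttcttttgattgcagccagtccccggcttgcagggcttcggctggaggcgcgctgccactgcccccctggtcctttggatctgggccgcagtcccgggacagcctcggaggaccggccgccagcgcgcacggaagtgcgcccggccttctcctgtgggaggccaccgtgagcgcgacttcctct

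Of the 49 genes, 38 had a promoter in the RefSeq table. The GC box was present in 22 of these 38 promoters (57.9%), near the 59.7% of 10923 tested genes with a promoter, and in 9 of the 10 matched genes that were higher after OGD over both drug arms. *Itgav* was the exception among the 10. The AP-1 motif TGANTCA was in 1 of the 38 promoters, that of *Col6a1*, and in 3.78% of the tested genes. The core of the hypoxia response element, ACGTG, was in 4 of the 38 promoters, those of *Col5a1*, *Col11a2*, *Itga9* and *Itgb3bp*, and in 21.8% of the tested genes. Both strands were searched, overlapping matches were allowed, and a match is a string of letters and not a binding site. *Lamc1*, *Itga7* and 9 other genes had no entry.

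In CONTROL-VEH, the integrin subunit with the highest summed level was *Itgb5*, with 71.6, 91.2, 110 and 81.2 FPKM in cultures 1 to 4 (mean 88.6 ± 16.6, SD, n = 4). *Itgb1* followed with 42.0 ± 9.47 FPKM and *Itga6*, a laminin receptor subunit, with 20.3 ± 2.73 FPKM. In these sums the cultures of *Itgb5* and *Itgb1* did not overlap, and neither did those of *Itgb1* and *Itga6*. On the longest protein-coding isoform alone the order of *Itgb5* and *Itgb1* was reversed. That isoform was at 12.47 ± 0.62 FPKM for *Itgb5* (14.35% of its summed level) and 33.15 ± 2.335 FPKM for *Itgb1* (76.4%). Among laminins, *Lamb2* (19.4 ± 17.0 FPKM), *Lamb1* (14.6 ± 10.9 FPKM) and *Lamc1* (12.8 ± 3.42 FPKM) had the highest means, and they did not differ beyond their spread. Among collagens, *Col16a1*, a fibril-associated chain, had the highest mean (24.8 ± 6.49 FPKM), followed by *Col4a1* (18.7 ± 10.7 FPKM) and *Col7a1*, the anchoring-fibril collagen of skin (13.7 ± 9.62 FPKM). These also overlapped. The longest protein-coding isoform held 1.9% of the summed level of *Col16a1*. It also held a small part in the genes with a large spread: 29.3% for *Lamb1*, 25.4% for *Lamb2*, 15.5% for *Col4a1* and 4.75% for *Col7a1*. On that isoform *Col16a1* was at 0.385 ± 0.148 FPKM in CONTROL-VEH, below *Col4a2* at 9.22 ± 1.18 FPKM.

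*Col1a1*, a main collagen chain of fibroblasts, had a mean of 0.386 FPKM over the 16 cultures, and *Lama1*, with 0.481 FPKM, and *Col6a5*, with 0.423 FPKM, were the matching genes just below the level threshold. Just above it were *Itga4* (0.556 FPKM) and *Col19a1* (0.658 FPKM). Of the 37 matching genes below the threshold, 20 had means under 0.1 FPKM. In 3 genes that passed, at least 1 group was itself under 0.5 FPKM: *Col4a6* in both CONTROL groups, *Col19a1* in both OGD groups and *Itga4* in CONTROL-VEH and OGD-TIA. *Col4a6* and *Col19a1* thus entered through the groups where they were high.

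With vehicle, 4 of 13 integrin subunits and 1 of 6 laminin chains were called higher after OGD and none lower, and of 27 collagen chains 2 were called higher and 2 lower. A gene was called when limma's padj over all 16313 genes tested was at most 0.05 and the change at least 2-fold. In OGD-VEH against CONTROL-VEH, 7 of the 49 genes were called higher, where 2.32% of all genes were, and 2 were called lower, where 1.64% of all genes were. The 7 were *Lamc1*, *Col6a2*, *Col5a3* and the integrin subunits *Itga5*, *Itga7*, *Itgav* and *Itgb8*, and the 2 were *Col19a1* and *Col25a1*. Of these, *Col19a1* passed the level threshold only through its CONTROL groups. Among the 49 genes no padj in this comparison was below 0.0357. The median log2 change of the 49 genes was 0.49, against 0.10 over all genes, and 36 of the 49 were above 0, against 57.9% of all genes. In 10 of them every OGD-VEH culture lay above every CONTROL-VEH culture, as in 12.7% of all genes, and in 4 below, as in 10.0%. In bulk RNA, fewer cells of a type and less RNA per cell cannot be told apart.

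Leaving out any of cultures 1, 2, 3, 4, 10, 11 or 12 left 0 of the 49 genes called, and without OGD-VEH 9, 14 were called higher, where 7.12% of all genes were, and 5 lower, where 6.2% were. Every one of the 9 kept its direction in all 8 omissions, and the log2 changes lay between 2.003 and 2.66 for *Itga5*, 1.64 and 2.27 for *Lamc1*, 1.59 and 2.27 for *Col6a2*, 0.90 and 1.44 for *Itgb8*, and -1.73 and -1.19 for *Col25a1*. Over all genes the same omissions moved the number called from 646 to between 1 and 2172. In OGD-VEH 9 the median of the 49 genes lay 0.03 above CONTROL-VEH on the log2 scale, against 0.57, 0.35 and 1.02 in cultures 10, 11 and 12. With TIA, the same medians were 0.21, 0.10 and 0.09 in cultures 13, 14 and 15 and 0.61 in OGD-TIA 16. Culture 12 was the highest of its 4 in 30 of the 49 genes and culture 16 in 28.

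Over both drug arms together, 8 OGD cultures were compared with 8 CONTROL cultures with TIA as an additive term. In this comparison 12 of the 49 genes were called higher, where 2.8% of all genes were, and 2 were called lower, where 1.99% of all genes were. The 12 were *Itga5*, *Itgav*, *Itga7*, *Lamc1*, *Lama5* and the collagen chains *Col4a5*, *Col4a6*, *Col5a3*, *Col6a2*, *Col11a1*, *Col18a1* and *Col27a1*, and the 2 were again *Col19a1* and *Col25a1*. *Col4a6* and *Col19a1* passed the level threshold only through the groups where they were high, so their calls add no support. This comparison contains the 8 cultures of the previous one. The median log2 change of the 49 genes was 0.41, against 0.08 over all genes. Leaving out each of the 16 cultures in turn gave 7 to 13 genes called higher and 1 or 2 lower, the fewest without OGD-VEH 12. Without OGD-VEH 12 and OGD-TIA 16 together, an omission chosen after the values were seen, 5 were called higher (*Col11a1*, *Col4a6*, *Col6a2*, *Itga5*, *Itgav*; 1.47% of all genes) and *Col19a1* lower (0.926% of all genes).

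**Figure D1:**
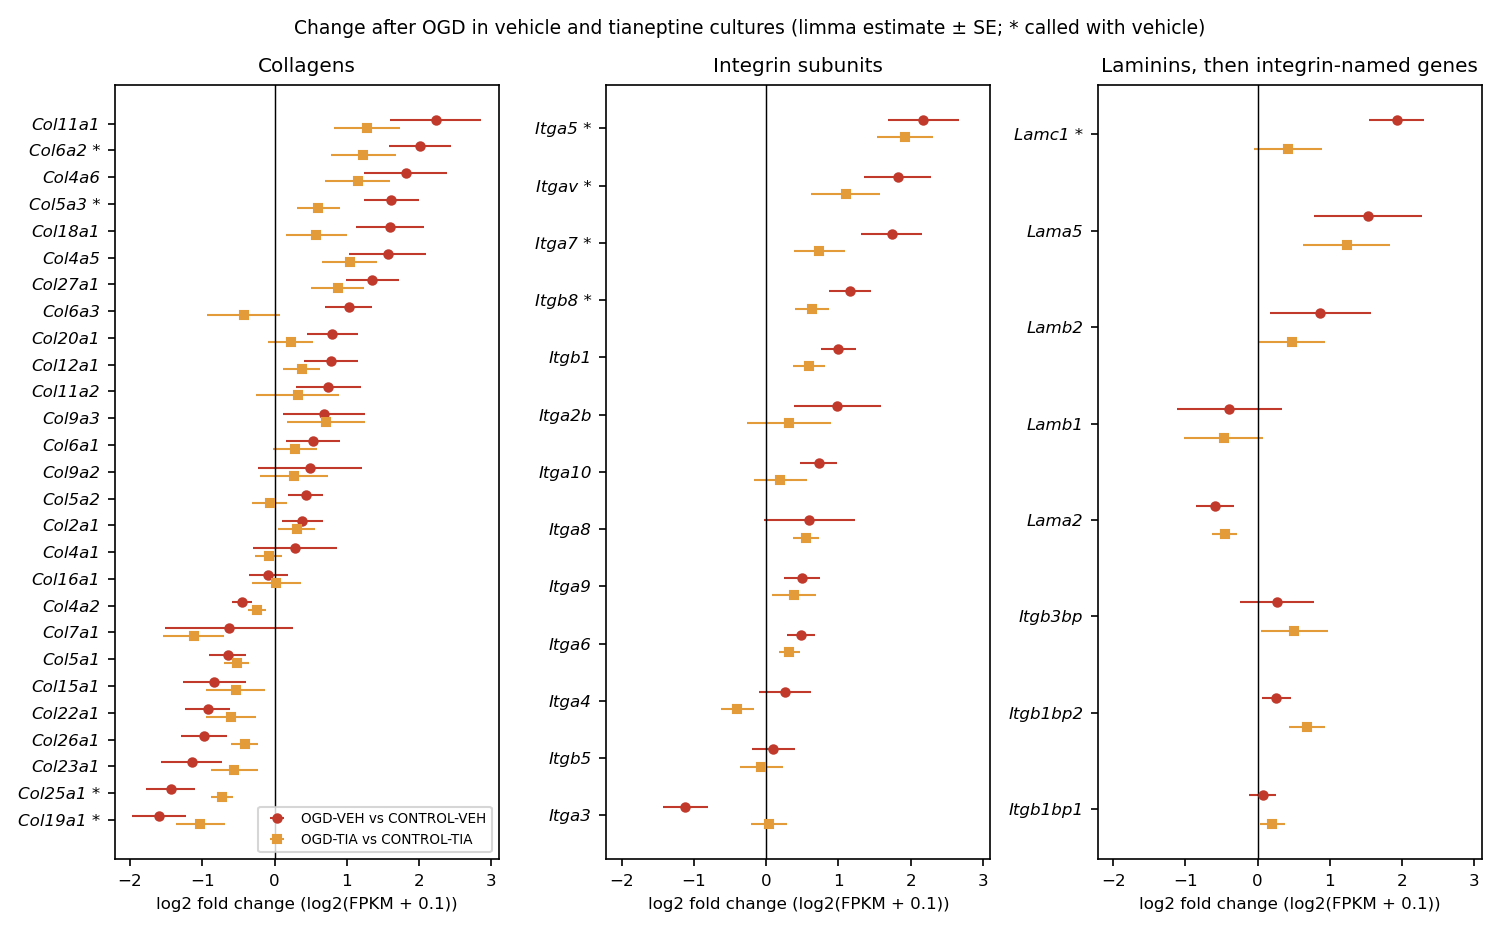
Log2 fold change on the log2(FPKM + 0.1) scale (x axis) of the genes, 1 left out (y axis) in OGD-VEH against CONTROL-VEH (red circles) and OGD-TIA against CONTROL-TIA (orange squares), as limma estimates with SE bars from 8 cultures each. Asterisks mark the 9 genes called with vehicle, and most orange points lie nearer to 0 than the red ones (41 of all 49 genes, and 73.0% of all genes tested).

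Among integrin alpha subunits, *Itga5*, the fibronectin-binding alpha-5 chain, had the lowest p of the 49 genes over both arms. The gene lies on chr15:103344286-103366763 (GRCm38, minus strand). Its values were 1.054, 1.17, 2.58 and 1.07 FPKM in CONTROL-VEH, against 2.34, 9.25, 8.77 and 9.38 FPKM in OGD-VEH. They were 1.21, 1.17, 1.227 and 0.897 FPKM in CONTROL-TIA and 2.56, 2.85, 8.66 and 6.57 FPKM in OGD-TIA. The TIA arms did not overlap, while in the VEH arms CONTROL-VEH 3 lay above OGD-VEH 9. The log2 fold change was 2.18 ± 0.491 (SE, limma padj = 0.0432) with vehicle, 1.92 ± 0.390 (padj = 0.108) with TIA and 2.05 ± 0.323 (padj = 0.00143) over both arms, a 4.14-fold higher level. The call over both arms held in all 10 other settings applied to it and in all 16 omissions of 1 culture.

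The isoforms of *Itga5* did not contribute evenly. Its longest protein-coding isoform stayed within 0.718 to 0.868 FPKM in all 8 CONTROL cultures and reached 2.29, 5.93, 4.15 and 5.75 FPKM in OGD-VEH and 1.31, 1.58, 1.72 and 3.46 FPKM in OGD-TIA. On this isoform the OGD and CONTROL cultures were separate in both arms, including cultures 3 and 9, and the log2 fold change over both arms was 1.72.

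*Itgav*, the alpha-V chain of vitronectin and TGF-beta binding integrins, was at 21.6, 6.98, 18.7 and 15.6 FPKM in CONTROL-VEH, against 25.5, 62.3, 46.1 and 95.6 FPKM in OGD-VEH. These groups did not overlap (exact two-sided permutation p = 0.0286, the smallest that 4 against 4 allow), and the log2 fold change was 1.82 ± 0.461 (limma padj = 0.0490). With TIA the values ran from 6.06 to 32.4 FPKM in CONTROL-TIA and from 31.9 to 52.1 FPKM in OGD-TIA, which overlapped narrowly. Over both arms the log2 fold change was 1.46 ± 0.354 (limma padj = 0.00832). Weighting each isoform by its length lowered it to 0.92, below the 2-fold limit.

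*Itga7*, a laminin receptor subunit, was at 4.33, 2.15, 2.41 and 1.89 FPKM in CONTROL-VEH, against 4.75, 8.16, 7.96 and 19.1 FPKM in OGD-VEH. The groups did not overlap, although culture 9 exceeded culture 1 only narrowly, and the log2 fold change was 1.74 ± 0.423 (limma padj = 0.0461). Over both arms it was 1.24 ± 0.310 (limma padj = 0.00948).

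*Itga3*, the alpha-3 laminin receptor subunit, had lower values with OGD and vehicle. Its level was 6.198, 10.0, 9.80 and 8.64 FPKM in CONTROL-VEH, against 6.06, 4.35, 4.00 and 2.13 FPKM in OGD-VEH, without overlap, and the log2 difference of -1.12 ± 0.311 missed the threshold (limma padj = 0.0559). With TIA the means were 5.91 ± 0.598 FPKM in CONTROL-TIA and 6.36 ± 2.22 FPKM in OGD-TIA, a log2 difference of 0.04 ± 0.248. *Itga3* had the smallest p of the 49 genes in the test of whether the OGD effect differed between the arms (log2 difference of the effects 1.16 ± 0.415, unadjusted p = 0.0143, limma padj = 0.722), which did not pass.

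Among beta subunits, *Itgb8*, which activates latent TGF-beta with alpha-V, varied least between the CONTROL cultures. It was at 9.53, 10.0, 11.4 and 10.3 FPKM in CONTROL-VEH, 9.34 to 10.8 FPKM in CONTROL-TIA, 12.97, 23.8, 23.4 and 39.5 FPKM in OGD-VEH and 12.1, 14.5, 13.5 and 26.7 FPKM in OGD-TIA. All 8 OGD cultures lay above all 8 CONTROL cultures, as in 3.22% of all genes. The log2 fold change was 1.16 ± 0.295 (limma padj = 0.0491) with vehicle and 0.90 ± 0.202 (limma padj = 0.00600) over both arms, where it fell short of 2-fold.

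*Itgb1*, the common beta-1 chain, went from 35.2, 45.8, 53.6 and 33.4 FPKM in CONTROL-VEH to 58.6, 99.4, 70.4 and 113 FPKM in OGD-VEH. The groups did not overlap, and the log2 fold change of 0.998 ± 0.241 passed the padj limit (limma padj = 0.0457) but fell just short of 2-fold, so it was not counted among the calls. *Itgb5* was at 69.9, 69.2, 90.3 and 177 FPKM in OGD-VEH, with only culture 12 outside the CONTROL-VEH range on the high side, and its log2 difference of 0.10 ± 0.299 did not pass (limma padj = 0.831). The ratio of *Itgb1* to *Itgb5* was 0.411 to 0.502 in CONTROL-VEH and 0.635 to 1.44 in OGD-VEH. It was 0.413 to 0.729 in CONTROL-TIA and 0.775 to 0.978 in OGD-TIA, so that neither arm overlapped. This ratio was computed after the values were seen and is given without a test. It rests on summed levels, of which the longest protein-coding isoform held 14.35% for *Itgb5* and 76.4% for *Itgb1*.

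The other integrin subunits were not called. *Itga6* was at 20.1, 29.0, 28.8 and 37.5 FPKM in OGD-VEH against 18.0 to 24.0 FPKM in CONTROL-VEH, and over both arms its log2 fold change was 0.40 ± 0.123 (limma padj = 0.0227). *Itga4*, *Itga8*, *Itga9*, *Itga10* and *Itga2b* did not pass padj in any comparison. *Itga2b*, the platelet alpha-IIb chain, varied from 0.447 to 6.33 FPKM between cultures, and its longest protein-coding isoform held 20.7% of its level.

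**Figure D2:**
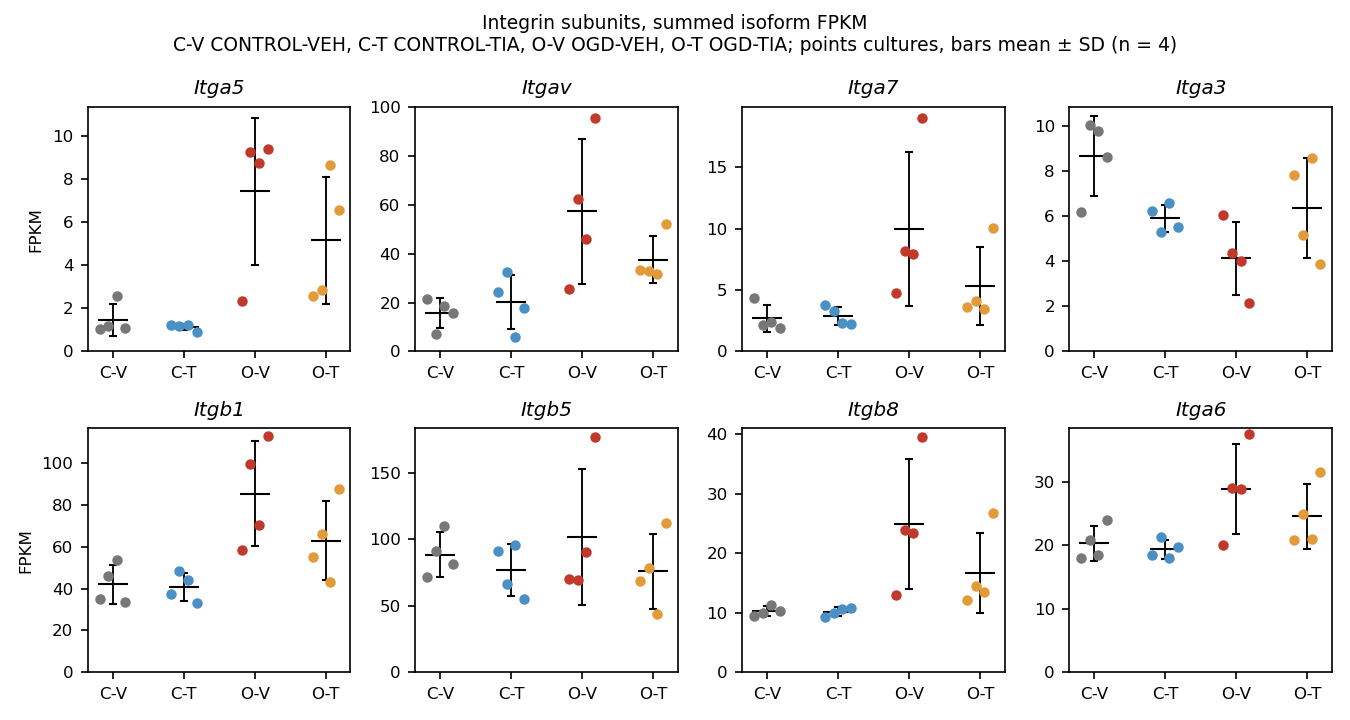
FPKM (y axis, linear, from 0) of 8 integrin subunits in each culture of the 4 groups (x axis), with bars for the mean ± SD of 4 cultures. With vehicle, the OGD cultures of *Itgb8* and *Itgb1* lie above and those of *Itga3* below their CONTROL cultures, and *Itgb5* overlaps its controls, at 69.2 to 177 FPKM in OGD-VEH.

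Among laminins, *Lamc1* had the smallest padj of the 49 genes with vehicle. The gene lies on chr1:153218922-153332786 (GRCm38, minus strand). Its level was 11.2, 17.0, 14.02 and 9.08 FPKM in CONTROL-VEH, against 22.9, 54.8, 48.0 and 85.2 FPKM in OGD-VEH, without overlap, and the log2 fold change was 1.92 ± 0.379 (limma padj = 0.0357). In the TIA arm it was at 22.3, 17.4, 8.69 and 27.0 FPKM in CONTROL-TIA and at 10.2, 29.6, 25.4 and 38.6 FPKM in OGD-TIA. These groups overlapped, and the log2 difference was 0.42 ± 0.472 (limma padj = 0.637). The difference between the arms was -1.50 ± 0.645 (interaction, unadjusted p = 0.0350, limma padj = 0.722) and did not pass.

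For *Lamc1* the sum over isoforms was less steady than its longest isoform. The longest protein-coding isoform, of 7622 bases, was at 5.88 to 8.49 FPKM in all 8 CONTROL cultures, at 9.29, 23.5, 19.4 and 28.6 FPKM in OGD-VEH and at 9.99, 11.1, 9.06 and 19.3 FPKM in OGD-TIA. On this isoform all 8 OGD cultures lay above all 8 CONTROL cultures, with log2 fold changes of 1.32 (limma padj = 0.0493) with vehicle, 0.69 (limma padj = 0.167) with TIA and 1.003 (limma padj = 0.00456) over both arms.

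*Lama5*, the alpha-5 chain of basement membranes, was called only over both arms (log2 fold change 1.38 ± 0.497, limma padj = 0.0453). It was at 5.25, 3.25, 1.66 and 1.61 FPKM in CONTROL-VEH, 1.59 to 2.15 FPKM in CONTROL-TIA, 2.75, 15.2, 3.31 and 24.8 FPKM in OGD-VEH and 1.87, 6.72, 2.04 and 14.1 FPKM in OGD-TIA. Its call was the least steady of the 14, kept in 4 of 10 other settings and in 5 of 16 omissions of 1 culture. The longest isoform was lower throughout, with 1.75, 3.30, 3.17 and 5.75 FPKM in OGD-VEH against 1.43 to 1.72 FPKM in CONTROL-VEH, and its change over both arms was 0.67.

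*Lamb2* and *Lamb1*, the beta-2 and beta-1 chains, did not pass in any comparison. *Lamb2* ranged from 5.88 to 41.9 FPKM in CONTROL-VEH, against 14.1 to 46.5 FPKM in OGD-VEH, and *Lamb1* from 5.25 to 28.5 FPKM and from 2.44 to 19.9 FPKM. *Lama2*, the alpha-2 chain of muscle and glial basement membranes, was lower over both arms by padj alone (log2 difference -0.52 ± 0.151, limma padj = 0.0177), with 2.69 to 2.97 FPKM in CONTROL-VEH, against 1.24 to 2.94 FPKM in OGD-VEH.

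**Figure D3:**
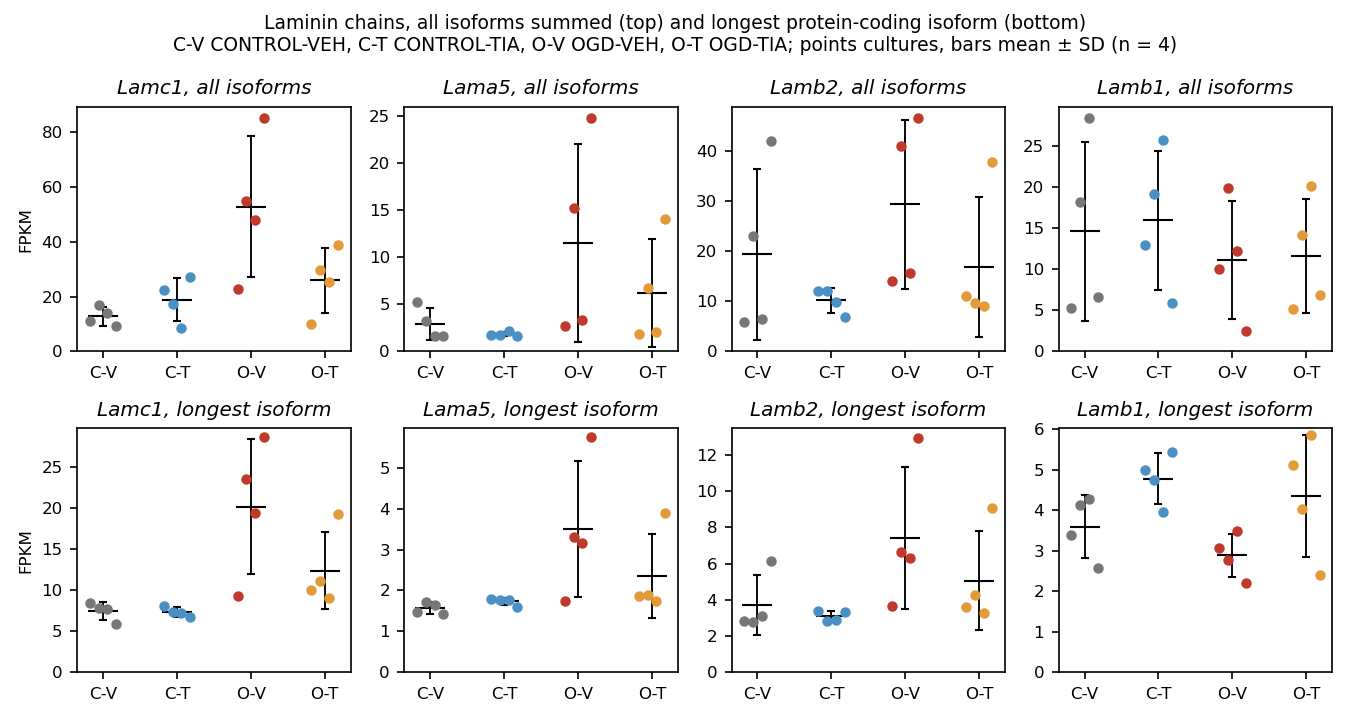
FPKM (y axis, linear, from 0) of 4 laminin chains in each culture of the 4 groups (x axis), summed over all isoforms in the top row and for the longest protein-coding isoform alone in the bottom row, with bars for the mean ± SD of 4 cultures. The longest isoform of *Lamc1* runs from 5.88 to 8.49 FPKM in the CONTROL cultures, below all OGD cultures, while the summed level overlaps between CONTROL-TIA and OGD-TIA.

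The collagens split by chain. Among the 7 fibrillar chains, 3 were called higher over both arms and none lower. *Col11a1*, a minor chain of fibrils, had the largest log2 change with vehicle, from 3.33, 1.88, 2.25 and 2.71 FPKM in CONTROL-VEH to 3.31, 13.7, 11.5 and 39.3 FPKM in OGD-VEH. Culture 9 lay within the CONTROL range and the other 3 above it, and the change of 2.23 ± 0.635 missed the threshold with vehicle (limma padj = 0.0583). Over both arms it was 1.75 ± 0.422 (limma padj = 0.00805) and held in all 10 other settings and all 16 omissions. *Col27a1* reached 2.90, 5.61, 6.09 and 10.8 FPKM in OGD-VEH, over 1.61 to 2.77 FPKM in its controls, and *Col5a3* at 0.400 to 0.924 FPKM and 1.37, 2.60, 2.60 and 4.14 FPKM, both without overlap. *Col5a1*, the other chain with which *Col5a3* can form trimers, was lower over both arms by padj but not by 2-fold (log2 difference -0.59 ± 0.154, limma padj = 0.0121).

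Collagen IV chains lie in pairs that share a promoter region head to head, and the pairs differed. *Col4a6* and *Col4a5* start 1343 bases apart on chromosome X. *Col4a5* was at 1.57, 1.40, 1.70 and 4.29 FPKM in CONTROL-VEH, against 2.50, 6.82, 5.89 and 14.1 FPKM in OGD-VEH. *Col4a6* was at 0.175, 0.190, 0.251 and 0.642 FPKM and at 0.461, 1.27, 1.14 and 3.28 FPKM. In both genes culture 4 was the highest control and lay above culture 9. Over both arms the log2 fold changes were 1.30 ± 0.342 (limma padj = 0.0119) and 1.48 ± 0.375 (limma padj = 0.00995). *Col4a6* had passed the level threshold only through its OGD groups. *Col4a1* and *Col4a2*, the main chains of basement membranes, start 21 bases apart on chromosome 8. *Col4a2* was at 10.5, 9.64, 10.96 and 11.7 FPKM in CONTROL-VEH, against 8.36, 7.08, 9.16 and 6.81 FPKM in OGD-VEH, and its log2 difference over both arms was -0.35 ± 0.0917 (limma padj = 0.0124). *Col4a1* did not pass, with 0.10 ± 0.320 over both arms, and reached 58.7 FPKM in OGD-VEH 12 alone.

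The collagen VI chains gave unequal values. *Col6a2* was at 1.12, 0.659, 0.758 and 0.570 FPKM in CONTROL-VEH, 0.554 to 1.11 FPKM in CONTROL-TIA, 1.93, 3.00, 2.61 and 8.11 FPKM in OGD-VEH and 1.41, 1.56, 1.17 and 5.14 FPKM in OGD-TIA. All 8 OGD cultures lay above all 8 CONTROL cultures, and the log2 fold change over both arms was 1.62 ± 0.330 (limma padj = 0.00387). *Col6a1*, its partner in the same trimer, showed 0.41 ± 0.245 (limma padj = 0.211), and the ratio of *Col6a1* to *Col6a2* had medians of 3.83 and 4.36 in CONTROL-VEH and CONTROL-TIA and 1.56 and 2.17 in OGD-VEH and OGD-TIA. This ratio too was chosen after the values were seen. *Col6a3* was higher in all OGD-VEH cultures (1.64 to 4.04 FPKM against 0.744 to 1.62 FPKM) but not with TIA (log2 difference -0.42 ± 0.507), where CONTROL-TIA 5 was at 5.55 FPKM. The interaction did not pass (unadjusted p = 0.0360, limma padj = 0.722), and with isoforms weighted by length the change with vehicle was 0.40 in place of 1.03.

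*Col18a1*, the source of endostatin, was at 0.841, 0.838, 0.856 and 0.321 FPKM in CONTROL-VEH and 0.923, 2.93, 2.26 and 3.97 FPKM with OGD and vehicle. In CONTROL-TIA it ran from 0.659 to 1.053 FPKM. Of the OGD-TIA cultures, 3 lay within that range, at 0.955 to 0.998 FPKM, and OGD-TIA 16 was at 3.64 FPKM. Its log2 fold change over both arms was 1.09 ± 0.345 (limma padj = 0.0268). This call was kept in 4 of 8 other settings and in 12 of 16 omissions of 1 culture.

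The chains called lower were *Col25a1* and *Col19a1*, of which *Col19a1* lay near the level threshold. *Col25a1*, a membrane-spanning collagen of neurons, fell from 3.45, 3.82, 3.23 and 5.00 FPKM in CONTROL-VEH to 2.55, 1.36, 1.21 and 0.764 FPKM in OGD-VEH. In the TIA arm it was at 3.44 to 4.25 FPKM in CONTROL-TIA and at 2.80, 2.28, 2.12 and 1.97 FPKM in OGD-TIA. All 8 OGD cultures lay below all 8 CONTROL cultures, as in 2.42% of all genes. The log2 difference was -1.44 ± 0.335 (limma padj = 0.0442) with vehicle, -0.73 ± 0.150 (limma padj = 0.108) with TIA and -1.08 ± 0.202 (limma padj = 0.00277) over both arms. *Col19a1*, a fibril-associated chain, was at 0.642 to 1.52 FPKM in the CONTROL cultures, 0.441, 0.289, 0.259 and 0.123 FPKM in OGD-VEH and 0.189 to 0.544 FPKM in OGD-TIA, again without overlap, and its log2 difference over both arms was -1.31 ± 0.252 (limma padj = 0.00300). As *Col19a1* passed the level threshold only through its CONTROL groups, the choice of genes favored this difference. *Col23a1*, the other membrane-spanning chain, and *Col26a1* and *Col22a1* passed padj over both arms but not the 2-fold limit, with log2 differences of -0.85, -0.69 and -0.77.

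**Figure D4:**
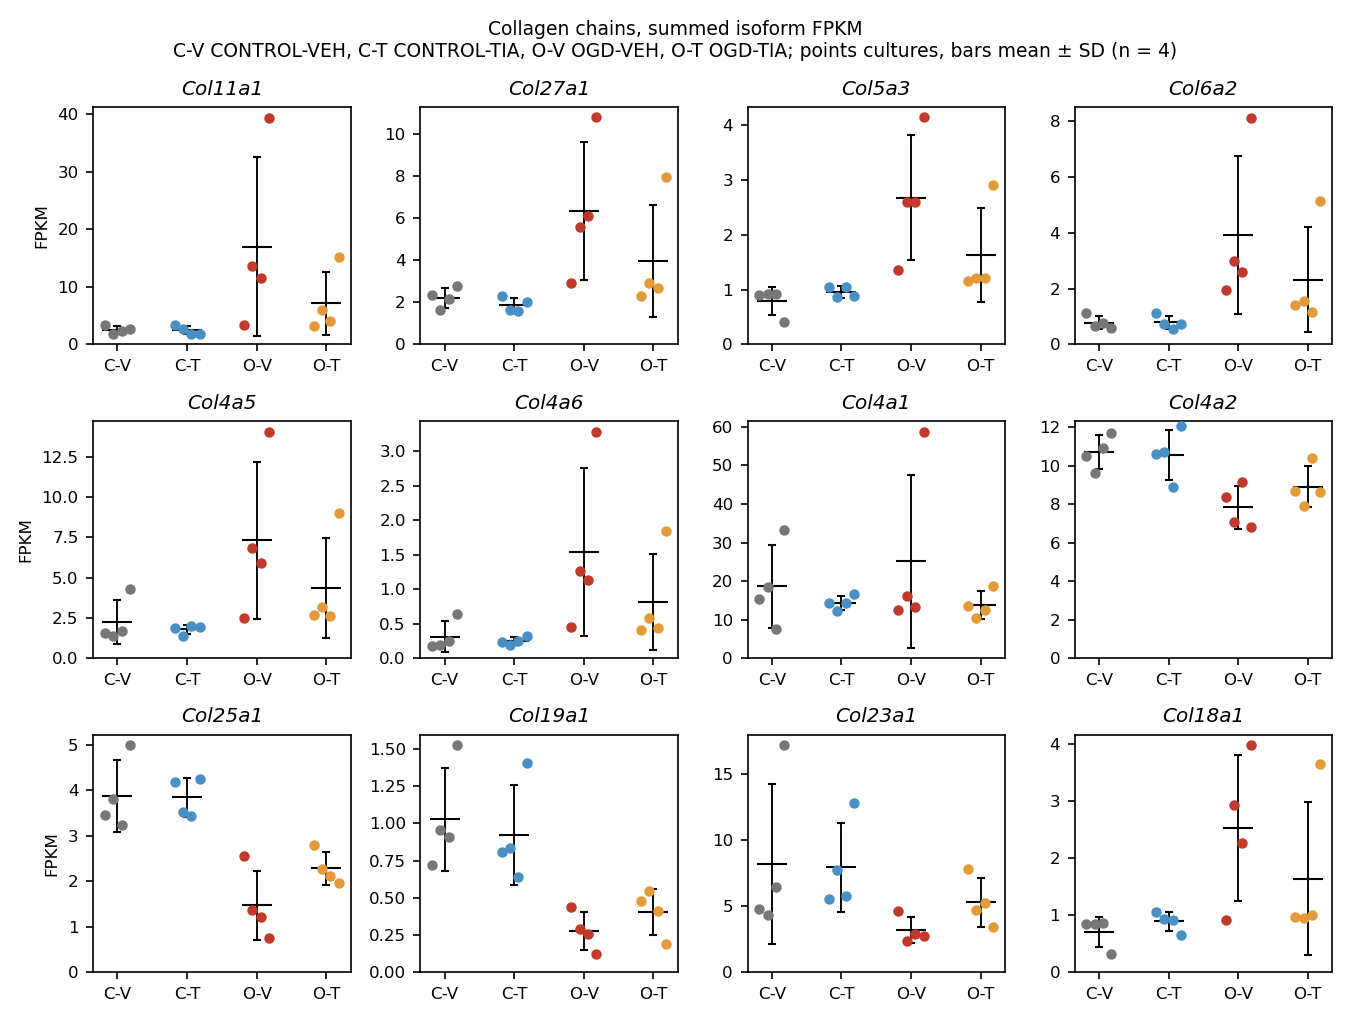
FPKM (y axis, linear, from 0) of 12 collagen chains in each culture of the 4 groups (x axis), with bars for the mean ± SD of 4 cultures. *Col6a2* and *Col5a3* lie above and *Col25a1* and *Col19a1* below all CONTROL cultures in every OGD culture, and the highest OGD value often belongs to OGD-VEH 12, as with 39.3 FPKM for *Col11a1*. *Col19a1* and *Col4a6* passed the level threshold only through the groups where they are high.

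With TIA, OGD gave no call in the fit used throughout. In OGD-TIA against CONTROL-TIA, limma called 0 of 16313 genes (0.0%) and 0 of the 49, while 16 of the 49 had an unadjusted p under 0.05, as did 3191 of all genes (19.6%). The study, testing counts with DESeq2 at the same limits, did report changed genes here, though fewer than with vehicle. In its pathway analysis, extracellular matrix-receptor interaction was enriched among the changed genes with vehicle and no longer with TIA. Pathway enrichment was not tested here. Limma with array quality weights called 52 genes higher and 31 lower, and with isoforms weighted by length 25 and 33, with 0 of the 49 in either. The 2 arms share no culture. All 9 genes called with vehicle changed in the same direction with TIA, as did 96.3% of the 646 genes called over the whole table, and 6 of the 9 had an unadjusted p under 0.05 there. All 9 changes were smaller with TIA, as were 98.8% of those 646, which were chosen for large changes in the other arm. Over all 49 genes, 42 had the same direction in both arms, against 77.5% of all genes. The difference between the arms itself passed for none of the 49 genes (limma interaction over 16 cultures, 0 of 16313 genes called; 3 of the 49 and 988 of all genes, 6.06%, with an unadjusted p under 0.05).

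Between the drug groups, no gene was called in the fit used throughout. In CONTROL-TIA against CONTROL-VEH limma called 0 of 16313 genes, and 1 of the 49 and 632 of all genes (3.87%) had an unadjusted p under 0.05. The 1 gene was *Itga3*, at 6.25, 5.29, 6.57 and 5.53 FPKM in CONTROL-TIA against 6.198 to 10.0 FPKM in CONTROL-VEH (log2 difference -0.53 ± 0.166, unadjusted p = 0.0129, limma padj = 0.9999). With isoforms weighted by length this difference was -0.14. *Itga2b* (0.68 ± 0.393) and *Itga4* (0.41 ± 0.248) followed. In OGD-TIA against OGD-VEH, 0 of 16313 genes were called, and 1 of the 49 and 1294 of all genes (7.93%) had an unadjusted p under 0.05. With array quality weights 138 genes were called higher and 232 lower there, with 0 of the 49 among them. The smallest p belonged to *Col23a1*, at 7.83, 4.68, 5.23 and 3.40 FPKM with TIA and 4.62, 2.41, 2.92 and 2.77 FPKM with vehicle (log2 difference 0.70 ± 0.292, limma padj = 0.551), followed by *Col6a3* (-0.82 ± 0.364) and *Col25a1* (0.71 ± 0.332). The 49 genes were lower with TIA after OGD in 34 cases, where 9162 of all 16313 genes were, with a median of -0.29 against -0.05 over all genes. *Lamc1* was at 25.9 ± 11.9 FPKM in OGD-TIA and 52.7 ± 25.7 FPKM in OGD-VEH (log2 difference -1.03 ± 0.495, limma padj = 0.551). These comparisons share groups with those above.

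The summed levels of cell type markers also differed between the cultures. The summed level of 10 neuron markers was 2136 to 2793 FPKM in the CONTROL cultures, 1984, 1513, 1428 and 1062 FPKM in OGD-VEH 9 to 12, and 2140, 2129, 2253 and 1377 FPKM in OGD-TIA 13 to 16. The sum of 10 astrocyte markers was 705 to 1690 FPKM in the CONTROL cultures, with the highest in culture 4, 1089 to 2734 FPKM in OGD-VEH and 825 to 2076 FPKM in OGD-TIA. That of 10 oligodendrocyte lineage markers was 170.5 to 224 FPKM in the CONTROL cultures, 255, 575, 541 and 707 FPKM in OGD-VEH, and 236 to 460 FPKM in OGD-TIA. Cultures 12 and 16, in which most collagen, laminin and integrin genes were highest, had the lowest neuron sums and the highest astrocyte and oligodendrocyte lineage sums of their groups. In the CONTROL groups the astrocyte sum was highest in cultures 4 (1690 FPKM) and 8 (934 FPKM). Unlike cultures 12 and 16, these also had the highest neuron sums of their groups (2793 and 2404 FPKM). Their oligodendrocyte lineage sums, 204 and 170.5 FPKM, were not the highest of their groups. In each group all 10 neuron and all 10 astrocyte markers had means of at least 0.5 FPKM, and so did 8 of 10 oligodendrocyte lineage markers. The part of cell composition in the changes of the matrix genes was not tested.

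Markers of vessels and meninges were low. The 10 endothelial markers summed to 0.789 to 1.66 FPKM in the CONTROL cultures, 2.32 to 3.11 FPKM in OGD-VEH and 1.40 to 5.44 FPKM in OGD-TIA, led by *Esam* or *Pecam1*, and 5 to 8 of the 10 had group means under 0.1 FPKM. The 10 mural markers summed to 5.15 to 8.98 FPKM in the CONTROL cultures, 5.93 to 16.6 FPKM in OGD-VEH and 4.34 to 12.03 FPKM in OGD-TIA, led by *Notch3*. The 10 meningeal fibroblast markers summed to 11.2 to 16.7 FPKM in the CONTROL cultures, 7.03 to 11.9 FPKM in OGD-VEH and 8.57 to 12.9 FPKM in OGD-TIA, mostly *Dcn*.

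**Figure D5:**
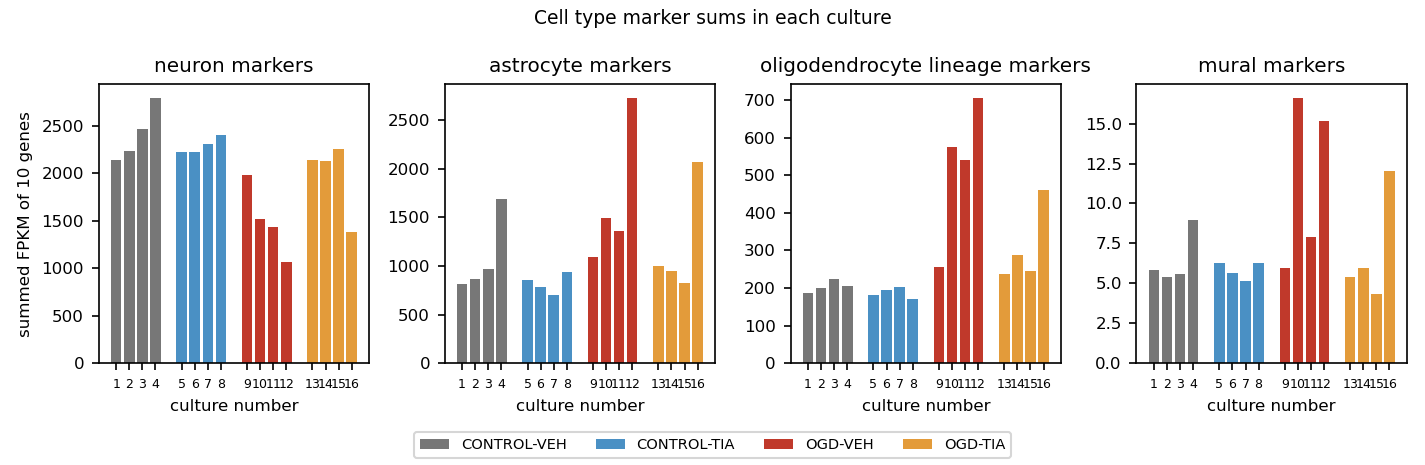
Summed FPKM of 10 marker genes (y axis, linear, from 0) for neurons, astrocytes, the oligodendrocyte lineage and mural cells in each of the 16 cultures (x axis), with 1 bar per culture colored by group. The neuron sum is lowest in OGD-VEH 12 at 1062 FPKM, and the oligodendrocyte lineage sum is highest there at 707 FPKM.

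Partners of these genes in the matrix were also measured. Of 38 tested matrix ligands and other matrix receptors, 3 were called higher with vehicle and none lower, and over both arms 5 were called higher and none lower. Of all genes, 2.32% were called higher and 1.64% lower with vehicle, and 2.8% and 1.99% over both arms, which is also the background for the next lists. *Cd44*, the hyaluronan receptor, went from 2.73 ± 1.12 FPKM in CONTROL-VEH to 27.5 ± 13.02 FPKM in OGD-VEH (log2 fold change 3.22 ± 0.502, limma padj = 0.0304). *Nid1*, the nidogen that links laminin to collagen IV, went from 0.522 ± 0.185 to 2.90 ± 1.22 FPKM (2.20 ± 0.420, limma padj = 0.0350), and *Spp1*, osteopontin, a ligand of alpha-V integrins, from 0.212 ± 0.143 to 1.34 ± 0.377 FPKM (2.29 ± 0.420, limma padj = 0.0344). As *Spp1* in CONTROL-VEH was itself under the 0.5 FPKM level threshold, the choice of genes tested favored its call. *Sdc4* and *Hspg2*, perlecan, were called only over both arms. *Fn1*, the fibronectin bound by alpha-5 beta-1, was at 40.1 ± 20.1 FPKM in CONTROL-VEH, against 74.3 ± 25.7 FPKM in OGD-VEH and did not pass (limma padj = 0.147).

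Of 27 tested genes of collagen processing, *Fkbp10*, a collagen chaperone of the endoplasmic reticulum, was called higher with vehicle (2.32 ± 0.437 to 7.02 ± 3.17 FPKM, log2 fold change 1.45 ± 0.338, limma padj = 0.0442). Over both arms *Serpinh1*, the collagen chaperone HSP47, was called as well (1.51 ± 0.466, limma padj = 0.0239), and none was called lower. Of 44 tested genes of the integrin adhesion machinery, *Flnc*, *Tns3* and *Cd9* were called higher and *Actn2* lower with vehicle. *Flnc*, a filamin that links integrins to actin, went from 0.297 ± 0.0437 to 2.21 ± 1.13 FPKM (2.41 ± 0.380, limma padj = 0.0320). As *Flnc* in CONTROL-VEH was itself under the 0.5 FPKM level threshold, the choice of genes tested favored its call. Over both arms *Flnc*, *Tns3* and *Cd151* were called higher and none lower. The medians of the 3 lists with vehicle were 0.38, 0.54 and 0.26, against 0.10 over all genes.

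The matching genes below the level threshold were also tested. Fitted without the threshold, 6 of them separated OGD-VEH from CONTROL-VEH, 4 lower (*Col6a4*, *Col6a5*, *Lama3*, *Itgbl1*) and 2 higher (*Itgb2*, *Col3a1*), and none had a padj of at most 0.05, whereas 9 of 36 had an unadjusted p under 0.05. Over both arms 6 of 36 had a padj of at most 0.05. Among the genes that passed the threshold, 12.7% separated higher and 10.0% lower with vehicle. In the fit of those genes, 35.0% had an unadjusted p under 0.05 with vehicle and 32.1% a padj of at most 0.05 over both arms. That fit covers other genes at higher levels, so its p and padj shares are not directly comparable with the counts without the threshold. Of the 6 with a padj of at most 0.05 over both arms, *Lama3*, at 0.476 and 0.477 FPKM in CONTROL-VEH and CONTROL-TIA and 0.170 and 0.189 FPKM in OGD-VEH and OGD-TIA, was the only one whose 8 OGD cultures all lay below the 8 CONTROL cultures.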

How the data were processed

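Total RNA of the 16 cultures was sequenced from stranded mRNA libraries as single reads of 50 bases. The authors aligned the reads with STAR, estimated isoforms with eXpress and deposited their levels as FPKM scaled by TMM (GRCm38, Ensembl 92, per the labels and methods), and they tested counts with DESeq2. The deposited FPKM values are not counts, so limma 3.58.1 (R 4.3.3, trend) was fitted to log2(FPKM + 0.1), which understates changes of low genes, on the 16313 genes whose mean across all cultures reached 0.5 FPKM. Of the lines in the table, 74 had no identifier and were left out. P-values were adjusted by Benjamini-Hochberg over all genes tested, and 6 comparisons were made. The code was tested on simulated data. Promoters and gene positions came from RefSeq and GENCODE M21. Depth was estimated and is not a deposited value. Per-sample columns not used numbered 0. Single results for 1 of the 49 genes and for microglia markers are not reported here.

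The genes and lists were chosen with earlier results of these data known. Named genes are those called in any comparison, the 3 most abundant of each class in CONTROL-VEH, the 3 largest changes per class without overlap, the 3 smallest p between drug groups and in the interaction, and those next to the level threshold; *Itgb1* ratios, *Col6a1*, *Col5a1*, *Col4a2* and other genes beyond these were chosen after their values were seen. Isoforms of a gene share reads, so their estimates are uncertain. Replicates are described as biological, and p-values measure the spread between these cultures. Alternatives were 2 pseudocounts, 3 filters, another scaling, array weights, robust variances, all cultures in one fit, 3 ways of joining isoforms and leaving out each culture.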

Additional observations from a re-analysis of the deposited data

Results flagged for a closer look

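Among 112 groups of 4 cultures, 4 for each of 28 named genes, 14 held a culture that stood apart from the other 3 by Dixon's criterion, which chance meets in about 1 in 20 groups. OGD-TIA 16 was such a culture, on the high side, for *Col5a3* (2.91 FPKM), *Itga7* (10.1 FPKM), *Itgav* (52.1 FPKM), *Col4a5* (8.985 FPKM), *Col18a1* (3.64 FPKM) and *Lamb2* (37.7 FPKM). OGD-VEH 12 stood apart for *Col4a1* at 58.7 FPKM. CONTROL-VEH 4 was low for *Col5a3* (0.400 FPKM) and *Col18a1* (0.321 FPKM). For *Itga5*, CONTROL-VEH 3 was high at 2.58 FPKM, and CONTROL-TIA 8 (0.897 FPKM) and OGD-VEH 9 (2.34 FPKM) were low. CONTROL-TIA 6 was low for *Col4a5* at 1.39 FPKM, and CONTROL-TIA 5 was high for *Col6a3* at 5.55 FPKM.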

How the results depend on the processing

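In OGD-VEH against CONTROL-VEH, 9 of the 49 genes were called. The number was 0 without a filter on low values, 0 with each isoform by itself, 18 with array quality weights, 16 with all 16 cultures in one fit, and 16 with isoforms weighted by length, and it ran from 0 to 19 when 1 culture was left out. Over both drug arms, 14 were called. The number was 8 with a pseudocount of 1, 9 of the 31 genes left with a minimum mean of 2 FPKM, 8 with array quality weights, 8 of the 38 genes testable on the longest protein-coding isoform alone, and 6 without OGD-VEH 12 and OGD-TIA 16, the last 2 settings being chosen after the data were seen. Leaving out 1 culture gave 8 to 15. The other 4 comparisons gave 0 calls among the 49 genes in every setting. The cause of these shifts was not tested. With vehicle, 4 of the 28 named genes, none of them called, changed sign: *Col16a1* was at 0.10 with isoforms weighted by length and between -0.25 and 0.073 when 1 culture was left out, *Col4a1* between -0.23 and 0.63, *Lamb1* at 0.013 with array quality weights and between -0.78 and 0.21, and *Itgb5* at -0.075 with array quality weights and between -0.205 and 0.25. No paired analysis was possible because the groups share no replicate numbers. The precision is that of 4 cultures per group. The depth of each single culture is an estimate, as the study gives only a range of aligned reads over all samples.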
